A study of Mus musculus with 13 samples.

Results

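The citric acid cycle and the exchange reactions around it were followed through 34 genes in mouse heart ventricles, cardiomyocytes and cardiac fibroblasts. The genes were taken by name, with earlier results of these data known. They comprise 15 genes of the cycle proper, the 6 genes of 3 isozyme pairs with a mitochondrial and a cytosolic form, the cytosolic aconitase Aco1, 5 genes that feed the cycle through pyruvate, malate or glutamate, 4 of branched-chain amino acid oxidation and 3 mitochondrial carriers. Of the 34, 32 passed a minimum mean of 1 FPKM (Cufflinks' measure of fragments scaled to transcript length and library size) among the 12095 genes tested in the isolated cells, and 33 among the 11635 genes tested in ventricles. Suclg1 and Pcx were below it in cells and Pcx in ventricles, and both are described with their other transcripts further on.

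All 13 libraries were from wild-type mice of the FvB strain. Cardiomyocytes gave a PN30, a PN67 and 2 neonatal libraries (PN is the postnatal day; the neonatal titles read PN1-2 and PN1), and cardiac fibroblasts gave a PN28, a PN60 and 2 neonatal libraries (titles PN1-3 and PN1-2). Ventricles, with the atria taken off, gave 5 libraries, at embryonic day 17 (E17) and on PN1, PN10, PN28 and lastly PN90. PN30 and PN67 cardiomyocytes were isolated by perfusing the heart with enzymes (Langendorff), whereas neonatal cardiomyocytes and all fibroblasts came from preplating, in which fibroblasts settle on a dish first, so that stage and isolation method cannot be told apart in cardiomyocytes. Fibroblast RNA was extracted with another kit than cardiomyocyte RNA, so that kit and cell type cannot be told apart either.

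In the cycle, citrate synthase joins acetyl-CoA to oxaloacetate, and successive dehydrogenases pass electrons to the respiratory chain while oxaloacetate is formed again. Heart muscle draws most of its ATP from this route, chiefly with fatty acids as fuel after birth. The inner mitochondrial membrane does not let NADH through, so the malate-aspartate shuttle carries its electrons inward, using malate dehydrogenase and aspartate aminotransferase on both sides of the membrane together with carriers for malate and aspartate. Isocitrate dehydrogenase also has NADP-dependent forms on both sides, Idh2 in mitochondria and Idh1 in the cytosol, apart from the NAD-dependent Idh3 complex of the cycle.

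Markers of the labelled cell types were measured first. Summed over 9 measured fibroblast markers, fibroblast libraries held 2877 to 3280 FPKM, against 277 to 327 FPKM in cardiomyocytes. The median level of these fibroblast markers in PN30 and PN67 cardiomyocytes was 12.2% and 10.6% of that in later fibroblasts. In neonatal cardiomyocytes it was 7.46% and 7.26% of that in neonatal fibroblasts. No such share was subtracted from cardiomyocytes. Summed over 12 measured cardiomyocyte markers, cardiomyocytes held 47042 and 47501 FPKM at PN30 and PN67 and 13111 and 11961 FPKM as neonates, against 30.1 and 38.0 FPKM in PN28 and PN60 fibroblasts and 1319 and 1164 FPKM in neonatal fibroblasts. None of the 12 was at 0 in neonatal fibroblasts, and Tnnc1 was at 0 in PN60 fibroblasts. The median level of these markers in neonatal fibroblasts was 10.0% and 8.45% of that in neonatal cardiomyocytes, against 0.0666% and 0.0637% at PN28 and PN60 of that in later cardiomyocytes. Neonatal cardiomyocytes also held 15717 and 20564 FPKM over 5 measured erythroid markers, against 1099.6 and 719.6 FPKM at PN30 and PN67, and 74.0 to 162 FPKM in the fibroblast libraries. As a gauge of depth, coverage divided by FPKM was 21.8 to 25.1 in cardiomyocytes, 30.4 to 32.8 in fibroblasts and 19.5 to 25.0 in ventricles, and total fragment counts are not given. The labels do not state that the 2 neonatal libraries of a cell type came from separate litters or cultures, so each p-value refers to the spread among these libraries alone, which may be technical.

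The paired isozymes are separate genes, so their reads can be told apart where the sequences differ. The first 60 coding bases of each, with the start codon in capitals, show how little the mitochondrial and the cytosolic member share at the end where a mitochondrial protein carries its import signal. They are from GENCODE release M21 on GRCm38, 5′ to 3′.
Idh2 (minus strand, chr7:80115217-80115276): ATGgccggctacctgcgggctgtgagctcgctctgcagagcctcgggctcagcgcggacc
Idh1 (minus strand, chr1:65175293-65175352): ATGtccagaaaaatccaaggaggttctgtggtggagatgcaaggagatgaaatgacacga
Mdh2 (plus strand, chr5:135778736-135778795): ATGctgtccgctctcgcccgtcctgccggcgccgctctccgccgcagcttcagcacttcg
Mdh1 (minus strand, chr11:21566662-21571732, across an intron): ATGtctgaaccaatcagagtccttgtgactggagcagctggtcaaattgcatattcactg
Got2 (minus strand, chr8:95888246-95888305): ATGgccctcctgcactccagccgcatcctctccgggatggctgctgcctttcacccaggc
Got1 (minus strand, chr19:43524396-43524455): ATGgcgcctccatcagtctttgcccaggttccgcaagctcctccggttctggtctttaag
The mitochondrial forms are longer by 38 codons (Idh2, 452 against 414), 4 codons (Mdh2, 338 against 334) and 17 codons (Got2, 430 against 413). Aligned over the coding sequence, Idh2 and Idh1 were identical at 69.15% of bases, Mdh2 and Mdh1 at 59.95%, and Got2 and Got1 at 60.03%. Over the whole transcripts, the longest run of letters common to both members was 19, 11 and 12 bases in these pairs. In the deposited tables (mm9) the loci are chr7:87239732-87260278 (Idh2), chr1:65205190-65233053 (Idh1), chr5:136254350-136266268 (Mdh2), chr11:21456790-21472370 (Mdh1), chr8:98388034-98412447 (Got2) and chr19:43574242-43599095 (Got1).

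Which side of the membrane was favoured depended on the cell type and on the pair. Cardiomyocytes held far more Idh2 than Idh1, more Mdh1 than Mdh2, and more Got2 than Got1 in all 4 libraries. Fibroblasts held more Mdh2 than Mdh1 and more Got1 than Got2 in all 4 libraries. At PN28 and PN60 they held 0.845 and 1.21 times as much Idh2 as Idh1. For each pair, the 4 cardiomyocyte ratios and the 4 fibroblast ratios did not overlap. How often the ratios of other gene pairs fail to overlap was not counted. Of all genes, 40.9% differed between the cell types in neonates and 77.9% later, at a limma adjusted p below 0.05.

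Idh2 had 1082 and 1428 FPKM in PN30 and PN67 cardiomyocytes, against 468 and 412 FPKM in neonatal cardiomyocytes. It had 6.21 and 10.5 FPKM in PN28 and PN60 fibroblasts, against 84.0 and 87.6 FPKM in neonatal fibroblasts. The 2 later fibroblast libraries were the only cell libraries in which Idh2 stood near the level of Idh1. With the locus-assigned transcripts described further on, Idh2 was 0.560 and 0.823 times Idh1 at PN28 and PN60. Idh1 had 25.3 and 28.7 FPKM in PN30 and PN67 cardiomyocytes, against 9.15 and 7.44 FPKM in neonatal cardiomyocytes. In fibroblasts Idh1 had 7.35 and 8.68 FPKM at PN28 and PN60, against 7.75 and 8.91 FPKM in the neonatal libraries, so that all its fibroblast values lay beside the neonatal cardiomyocyte values. The mean log2 ratio of Idh2 to Idh1, with 1 FPKM added to each, was 5.52 ± 0.11 in cardiomyocytes and 1.62 ± 1.86 in fibroblasts (SD, n = 4 each). Their difference was 3.90 (exact permutation test, two-sided, p = 0.0286, the smallest that 4 against 4 allows; Benjamini-Hochberg over 3 pairs, 0.0286). In all 3 pairs each mean pools 2 neonatal and 2 later libraries, so the SD takes in the spread between stages and the test ignores stage. Without the second neonatal cardiomyocyte library the difference was 3.87 and the adjusted p 0.0571.

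Mdh1, the cytosolic malate dehydrogenase, was the highest of all 34 genes in later cardiomyocytes, with 1956 and 1874 FPKM at PN30 and PN67, against 514 and 411 FPKM in neonates, where the second library held about as much Idh2 (412 FPKM). Its fibroblast levels were 21.5 and 23.7 FPKM at PN28 and PN60, against 60.3 and 54.7 FPKM in neonates. Mdh2, which makes oxaloacetate within the cycle, had 1328 and 1179 FPKM in PN30 and PN67 cardiomyocytes, against 363 and 331 FPKM in neonatal ones. In fibroblasts Mdh2 kept a narrower range, with 81.6 and 67.8 FPKM at PN28 and PN60, against 96.5 and 94.1 FPKM in neonates. Cardiomyocytes thus held 1.24 to 1.59 times as much Mdh1 as Mdh2, and fibroblasts 3.79 and 2.86 times as much Mdh2 as Mdh1 at PN28 and PN60, against 1.601 and 1.72 times as neonates. The neonatal fibroblast libraries held the cardiomyocyte marker share given above. With that share of the neonatal cardiomyocyte level subtracted, their ratios were 4.42 and 4.16, above the later ones. The mean log2 ratio of Mdh2 to Mdh1 was -0.51 ± 0.15 in cardiomyocytes and 1.20 ± 0.58 in fibroblasts (SD, n = 4 each), a difference of -1.71 (exact permutation p = 0.0286, adjusted 0.0286).

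Got2, the mitochondrial aspartate aminotransferase, had 599 and 518 FPKM in PN30 and PN67 cardiomyocytes, against 119.8 and 99.6 FPKM in neonatal cardiomyocytes. It had 11.2 and 13.0 FPKM in PN28 and PN60 fibroblasts, against 22.4 and 21.2 FPKM in neonatal fibroblasts. Got1, its cytosolic partner, had 401 and 477 FPKM in PN30 and PN67 cardiomyocytes, against 66.9 and 55.5 FPKM in neonatal ones. In fibroblasts Got1 stood at 46.7 and 41.3 FPKM at PN28 and PN60, against 49.4 and 36.4 FPKM in neonates, and the 2 stages overlapped. Within cardiomyocytes the ratio of Got2 to Got1 was 1.49 and 1.09 at PN30 and PN67, against 1.79 and 1.79 in neonates. The mean log2 ratio was 0.59 ± 0.34 in cardiomyocytes and -1.36 ± 0.53 in fibroblasts (SD, n = 4 each), a difference of 1.95 (exact permutation p = 0.0286, adjusted 0.0286). Got2 has a processed copy in the annotation (Got2-ps1), so some of its reads could have been shared.

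**Figure D1:**
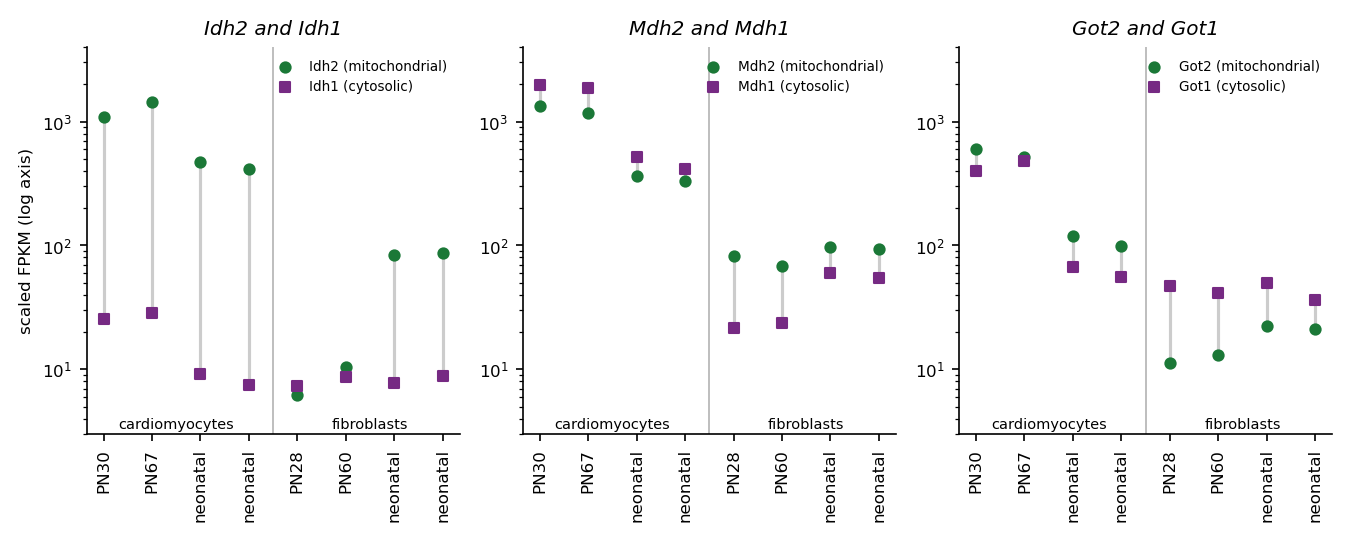
Scaled FPKM (log axis) of the mitochondrial member (green circles) and the cytosolic member (purple squares) of each pair in the 8 cell libraries, with later libraries left of neonatal ones in each cell type and a grey line joining the 2 members of a library. The Idh pair is far apart in cardiomyocytes and meets at PN28 and PN60 in fibroblasts, and the Mdh and Got pairs change order between the cell types.

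Pooled over both cell types, the pair ratios did not separate the stages. Later minus neonatal, the mean log2 ratio differed by -1.65 for Idh2 to Idh1, by 0.37 for Mdh2 to Mdh1 and by -0.67 for Got2 to Got1 (4 against 4 libraries, exact permutation p = 0.314, 0.657 and 0.457, adjusted 0.657 for all 3 pairs). Each stage group held both cell types, whose ratios did not overlap, so the pooled test cannot decide on a change within a cell type. For Idh2 to Idh1 the log2 ratios in cardiomyocytes were 5.36 and 5.59 at PN30 and PN67, against 5.53 and 5.61 in neonates, whereas in fibroblasts they were -0.21 and 0.25 at PN28 and PN60, against 3.28 and 3.16 in neonates. For Got2 to Got1 the log2 ratios were lower later in both cell types. In cardiomyocytes they were 0.58 and 0.12 at PN30 and PN67, against 0.83 and 0.83 in neonates. In fibroblasts they were -1.97 and -1.60 at PN28 and PN60, against -1.11 and -0.75 in neonates. With the marker share subtracted, Got2 was 0.263 and 0.381 times Got1 in neonatal fibroblasts, which overlapped the later 0.240 and 0.314 times. Within a cell type 2 libraries stand against 2, for which a permutation cannot give a p below 0.333, so no test was made there.

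Cardiomyocytes were then compared between the later and the neonatal stage. Of 32 members tested, 31 rose and 1 fell, where 36.9% of all 12095 genes rose and 30.3% fell (67.3% in all) at a limma adjusted p below 0.05. The median log2 change of the members was 2.22, against 0.09 over all genes tested. All 14 cycle genes tested rose, by 1.56 to 2.98, as did the 6 isozymes (1.499 to 2.82), the 4 branched-chain genes (2.51 to 2.98) and the 3 carriers (2.00 to 3.09). Summed over the 34 genes, PN30 and PN67 cardiomyocytes held 13905 and 13842 FPKM, against 3498 and 3054 FPKM in neonatal cardiomyocytes. The cardiomyocyte markers given above rose over the same libraries, the erythroid markers were lower in the later ones, and 12 endothelial markers summed to 1485 and 2351 FPKM later, against 3772 and 4183 FPKM in neonates. The macrophage and leukocyte markers (11 measured, of which 7 rose and 1 fell) summed to 359.6 and 383 FPKM later, against 98.8 and 124 FPKM in neonates. The part of these markers in the changes was not tested. In bulk libraries fewer cells of a type and less RNA per cell cannot be told apart.

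Among genes of the cycle proper, Ogdh, the E1 subunit of the 2-oxoglutarate dehydrogenase complex, changed most. It had 779 and 875 FPKM at PN30 and PN67, against 107 and 100.1 FPKM in neonates, an increase of 2.98 ± 0.13 in log2 (SE; limma adjusted p = 5.55e-06). The other subunits of that complex changed less. Dlst, its E2 subunit, had 348 and 302 FPKM, against 83.6 and 74.3 FPKM in neonates (2.03 ± 0.17, adjusted p = 4.11e-05), and Dld, the E3 subunit shared with pyruvate dehydrogenase, rose by 2.22 ± 0.21 (adjusted p = 7.29e-05). Cs, citrate synthase, which opens the cycle, had 898 and 783 FPKM at PN30 and PN67, against 188 and 169 FPKM in neonates (2.23 ± 0.12, adjusted p = 9.33e-06).

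The 3 subunit genes of the NAD-dependent isocitrate dehydrogenase rose by nearly the same amount, Idh3a by 2.12 ± 0.17, Idh3b by 2.23 ± 0.10 and Idh3g by 2.01 ± 0.13 (SE; adjusted p at most 3.27e-05). Their levels were not equal: later cardiomyocytes averaged 651 FPKM of Idh3b and 541 FPKM of Idh3g, against 254 FPKM of Idh3a, the catalytic subunit, of which the enzyme holds more copies than of the others. Succinate dehydrogenase, which is both a cycle enzyme and complex II of the respiratory chain, had its 4 subunits within a narrower span, with later means of 704 (Sdha), 919.6 (Sdhb), 631 (Sdhc) and 540.0 FPKM (Sdhd). They rose by 2.21 ± 0.15, 2.30 ± 0.10, 1.89 ± 0.16 and 1.56 ± 0.14 in that order (adjusted p at most 6.11e-05). Sucla2, the ATP-specific subunit of succinyl-CoA ligase, averaged 567 FPKM in later cardiomyocytes and the GTP-specific Suclg2 103 FPKM, and Sucla2 exceeded Suclg2 in all 13 libraries, by 2.93 times at least. Fh1, fumarase, rose by 1.82 ± 0.16 (adjusted p = 4.79e-05).

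On the sums over all its transcripts, the highest change of all members was that of Me3, the NADP-dependent malic enzyme of mitochondria. The rank rests on a transcript annotated as a retained intron: by protein-coding transcripts alone the change of Me3 was 1.62, rank 25 among the members, and its mean of 0.914 FPKM left it below the minimum for a test. Me3 had 42.6 and 42.0 FPKM at PN30 and PN67, against 3.304 and 3.06 FPKM in neonatal cardiomyocytes (3.37 ± 0.12, adjusted p = 2.74e-06), and 0.410 to 0.524 FPKM in the 4 fibroblast libraries. Me1, the cytosolic malic enzyme, had 37.8 and 51.0 FPKM, against 15.4 and 14.8 FPKM in neonates (1.48 ± 0.19, adjusted p = 3.72e-04). Me2, the NAD-dependent mitochondrial form, was the member that fell, with 3.76 and 4.17 FPKM, against 5.20 and 5.41 FPKM in neonates (-0.35 ± 0.13, adjusted p = 0.0489). The fall of Me2 did not pass the threshold when either later cardiomyocyte library (adjusted p = 0.229 without PN30, 0.108 without PN67), either neonatal cardiomyocyte library (0.143 and 0.199) or either neonatal fibroblast library (0.0586 and 0.0585) was left out. In later cardiomyocytes Me2 stood at 0.0997 and 0.0818 times the level of Me1. How Me3 compared with Me1 there depended on the transcripts counted, with Me3 at 0.0889 and 0.0642 times Me1 by protein-coding transcripts and at 2.61 and 1.88 times with the locus-assigned transcripts described further on.

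Glud1, glutamate dehydrogenase, which yields 2-oxoglutarate from glutamate, had the smallest rise. It had 95.9 and 104.5 FPKM at PN30 and PN67, against 73.1 and 69.7 FPKM in neonates (0.48 ± 0.10, adjusted p = 0.00369), and the call was lost with FPKM as deposited (adjusted p = 0.240) and with libraries set to equal sums (0.794). Aco1, which is an aconitase in the cytosol and binds iron-responsive RNA elements when it lacks its iron-sulphur cluster, had 18.0 and 15.3 FPKM at PN30 and PN67, against 8.12 and 7.34 FPKM in neonates (1.01 ± 0.17, adjusted p = 0.00133).

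**Figure D2:**
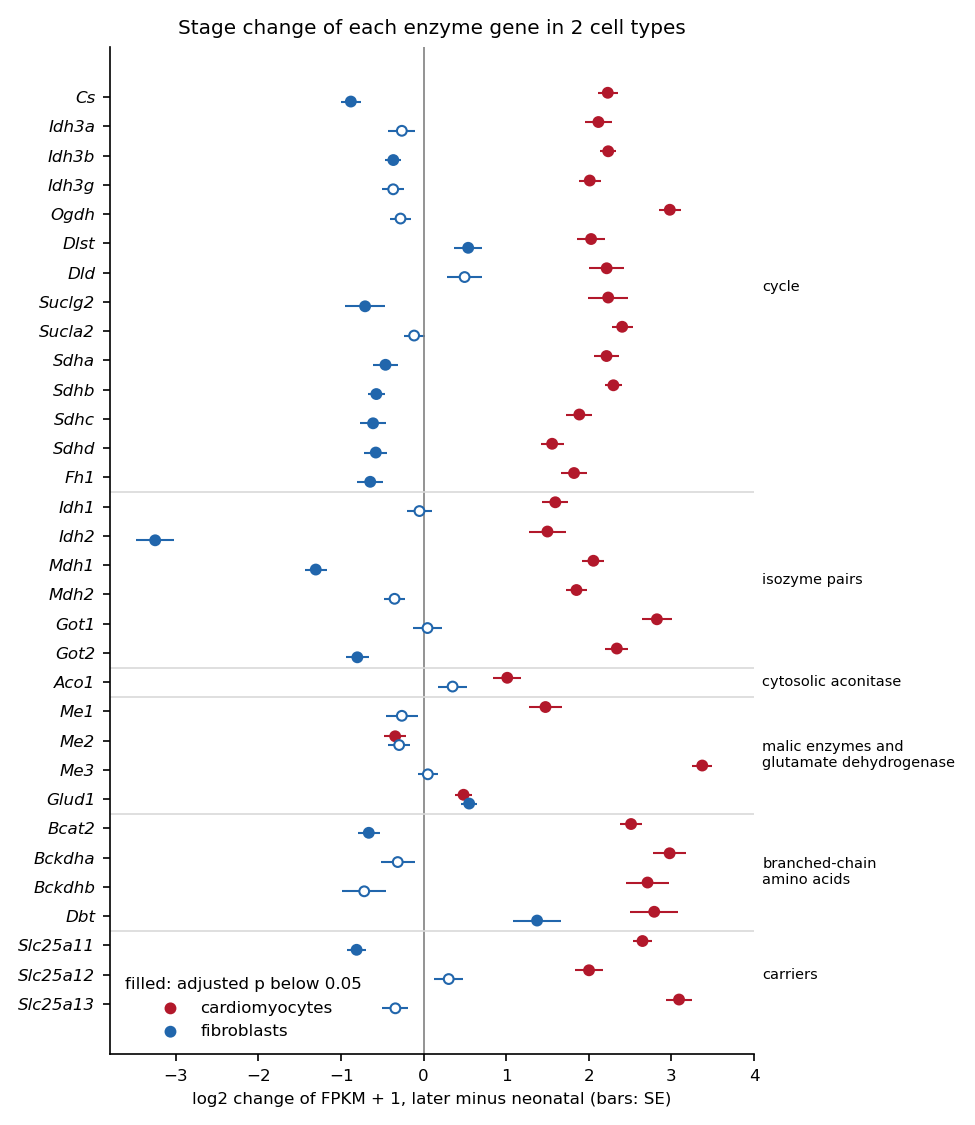
The log2 change of FPKM + 1, later minus neonatal, for the 32 members tested, with SE bars, in cardiomyocytes (red, listed first) and fibroblasts (blue). Filled points have an adjusted p below 0.05. In cardiomyocytes all points but Me2 lie right of 0, with Me3 at 3.37, whereas most fibroblast points lie between -1 and 0 and Idh2 lies at -3.25.

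Branched-chain amino acid oxidation starts with transamination by Bcat2, the mitochondrial aminotransferase, and an irreversible step by the branched-chain keto acid dehydrogenase, whose E1 is made by Bckdha and Bckdhb and whose E2 by Dbt. All 4 rose in cardiomyocytes, and their median log2 change was 2.75, against 2.22 for the 14 cycle genes; the difference between the groups was not tested. Bckdha had 186 and 271 FPKM at PN30 and PN67, against 28.4 and 26.8 FPKM in neonates (2.98 ± 0.20, adjusted p = 1.92e-05). Its E1 partner Bckdhb had 74.5 and 69.3 FPKM, against 11.1 and 9.19 FPKM in neonates (2.71 ± 0.27, adjusted p = 8.73e-05), so the alpha transcript exceeded the beta transcript in every cardiomyocyte library. Dbt had 32.4 and 35.6 FPKM, against 4.47 and 3.67 FPKM (2.79 ± 0.29, adjusted p = 1.16e-04), and Bcat2 had 67.05 and 70.4 FPKM, against 12.3 and 10.2 FPKM (2.51 ± 0.13, adjusted p = 8.51e-06).

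Of the carriers, Slc25a13, a calcium-regulated aspartate-glutamate carrier known as citrin, had 69.1 and 59.7 FPKM at PN30 and PN67, against 7.57 and 5.83 FPKM in neonates (3.09 ± 0.16, adjusted p = 8.35e-06). Its relative Slc25a12, known as aralar, had 47.3 and 42.5 FPKM, against 10.9 and 9.95 FPKM (2.00 ± 0.17, adjusted p = 5.13e-05). The 2 carriers changed order with stage on these sums, but a further Slc25a12 transcript described below ends that change of order. Slc25a11, which exchanges malate for 2-oxoglutarate, had 431 FPKM at both PN30 and PN67, against 72.2 and 63.8 FPKM in neonates (2.65 ± 0.12, adjusted p = 5.58e-06).

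**Figure D3:**
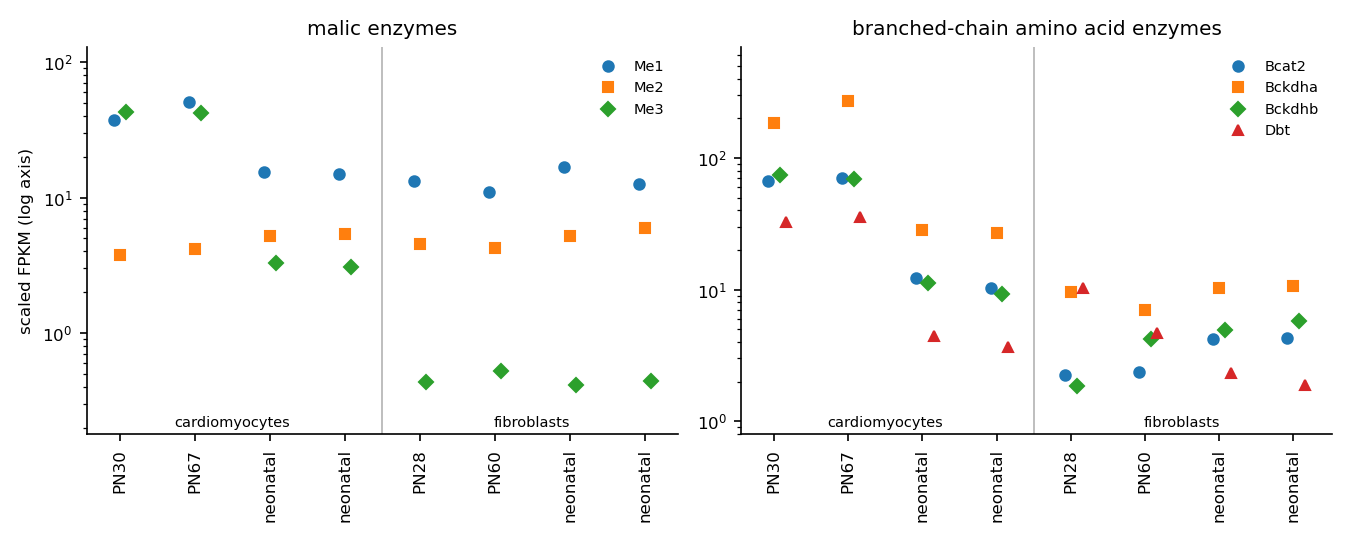
Scaled FPKM (log axis) of the 3 malic enzymes (left) and the 4 branched-chain amino acid genes (right) in the 8 cell libraries, later libraries left of neonatal ones in each cell type. Me3 spans the range of 0.410 FPKM in fibroblasts to 42.6 FPKM in later cardiomyocytes while Me2 stays between 3.76 and 6.001 FPKM; Dbt is the one branched-chain gene that is higher in later than in neonatal fibroblasts.

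In fibroblasts the same comparison gave a different picture. Of 32 members, 13 fell, 3 rose and 16 did not pass, where 21.4% of all genes fell and 19.7% rose (41.1% in all), and the median log2 change was -0.35, against -0.03 over all genes. Idh2 had by far the lowest change, -3.25 ± 0.23 (adjusted p = 7.14e-05), with the values given above and no overlap. Mdh1 changed by -1.31 ± 0.13 (adjusted p = 3.42e-04), and Cs, with 31.7 and 29.1 FPKM at PN28 and PN60, against 59.8 and 54.1 FPKM in neonates, by -0.88 ± 0.12 (adjusted p = 0.00134). All 4 succinate dehydrogenase subunits were among the 13, with changes of -0.46 to -0.61. Dbt rose, with 10.2 and 4.71 FPKM at PN28 and PN60, against 2.31 and 1.89 FPKM in neonates (1.37 ± 0.29, adjusted p = 0.00835), although without the second neonatal library its adjusted p was 0.0598. Glud1 rose, with 134 FPKM at both later ages, against 92.4 and 89.7 FPKM in neonates (0.55 ± 0.10, adjusted p = 0.00445). Dlst rose, with 62.4 and 48.8 FPKM at PN28 and PN60, against 42.0 and 33.8 FPKM in neonates (0.54 ± 0.17, adjusted p = 0.0362), a call lost without PN28 (0.102), without the second neonatal library (0.227), without either neonatal cardiomyocyte library (0.0669 and 0.0662) and with the fibroblast libraries fitted alone (0.101).

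The macrophage and leukocyte markers (11 measured) summed to 1274 and 1037 FPKM in PN28 and PN60 fibroblasts, against 140.1 and 287 FPKM in neonatal ones, and all 11 rose. Of 9 mesothelial and epicardial markers 8 fell, with sums of 37.2 and 34.5 FPKM later, against 105.6 and 119.6 FPKM in neonates, and of 12 endothelial markers 8 fell, with sums of 817 and 823 FPKM, against 1257 and 1436 FPKM. The part of these markers in the changes was not tested. Cardiomyocyte markers were also lower later. They stood at 10.0% and 8.45% of their neonatal cardiomyocyte level in the neonatal fibroblast libraries and under 0.1% of the later level at PN28 and PN60. Their part in the falls was not tested. The subtraction below takes the same share for every gene, which was not tested either. When these shares of the mean neonatal cardiomyocyte level were subtracted from the 2 neonatal fibroblast libraries, 2 members fell and 11 rose, in place of 13 and 3, where 13.2% of all genes fell and 24.9% rose. The 2 were Idh2 (-2.33 ± 0.25, adjusted p = 4.30e-04; 40.1 and 50.5 FPKM left in the neonatal libraries) and Cs (-0.40 ± 0.12, adjusted p = 0.0354). Mdh1, a fall before, was then a rise of 0.58 ± 0.14 (adjusted p = 0.0137), as was Sdha (0.51 ± 0.16, adjusted p = 0.0383). With FPKM as deposited, where the median of all genes moved to -0.29, 22 members fell and 1 rose (38.5% and 12.2% of all genes), and with libraries set to equal sums 23 fell and 1 rose (38.9% and 12.3%). Without the first or the second neonatal fibroblast library 7 members fell, and with the fibroblast libraries fitted alone 8 did; without PN60, 5 rose, and without the second neonatal library 1 rose. Idh2 fell under each of these settings. For left-out libraries and for fibroblasts fitted alone no share of all genes is given, so those counts show only how far the members moved.

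**Figure D4:**
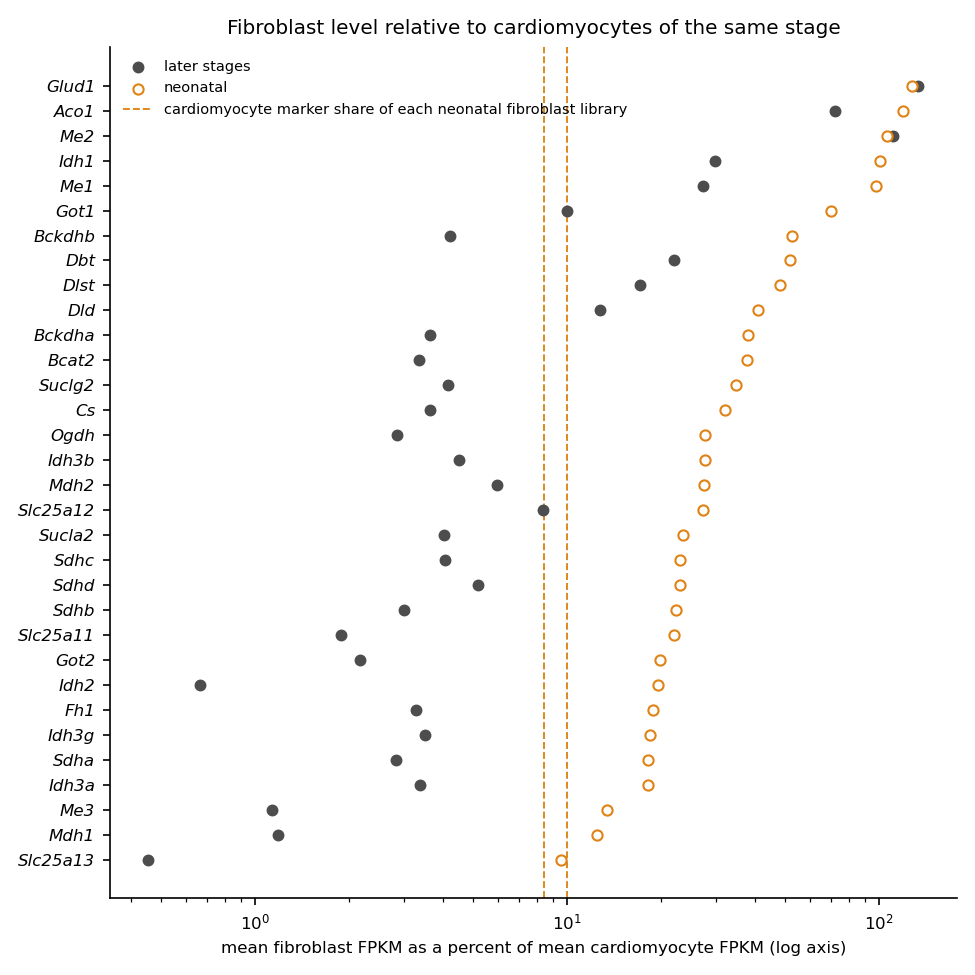
Mean fibroblast FPKM as a percent of mean cardiomyocyte FPKM (log axis), later stages in grey and neonatal stage as open orange circles, with dashed lines at the cardiomyocyte marker share of the 2 neonatal fibroblast libraries (8.45% and 10.0%). Slc25a13 (9.53%), Mdh1 (12.4%) and Me3 (13.4%) stand nearest these lines as neonates, and Glud1, Aco1, Me2, Idh1 and Me1 stand near 100%.

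The stage change differed between the cell types for most members. Only later cardiomyocytes were isolated by perfusion, so in these differences the isolation method cannot be told apart from stage and cell type. The change in cardiomyocytes minus that in fibroblasts was positive at an adjusted p below 0.05 for 30 of 32 members, where 32.3% of all genes were positive, 26.6% negative and 58.9% one or the other, and its median was 2.56, against 0.09 over all genes. The highest were Idh2 (4.75 ± 0.32, adjusted p = 3.47e-05), Slc25a11 (3.46 ± 0.17, adjusted p = 1.07e-05) and Slc25a13 (3.43 ± 0.22, adjusted p = 2.73e-05). Slc25a11 had 8.46 and 7.72 FPKM in PN28 and PN60 fibroblasts, against 14.3 and 15.6 FPKM in neonatal fibroblasts, and Slc25a13 had 0.330 and 0.256 FPKM, against 0.676 and 0.601 FPKM. Aco1 was the lowest of the 30 (0.66 ± 0.24, adjusted p = 0.0480), with 13.3 and 10.7 FPKM in later and 10.4 and 8.07 FPKM in neonatal fibroblasts; it lost the call without PN60 fibroblasts (0.102), without the first neonatal fibroblast library (0.157) and without any one of the 4 cardiomyocyte libraries (0.0577 to 0.139). For Me2 (-0.05 ± 0.19, adjusted p = 0.840) and Glud1 (-0.07 ± 0.14, adjusted p = 0.702) the difference did not pass. With the marker share subtracted from neonatal fibroblasts the count was 29 of 32, as Aco1 no longer passed, and 6 differences shrank by over 1.5 times: Mdh1 to 1.47, Idh3g to 1.43, Idh3a to 1.48, Fh1 to 1.58, Sdha to 1.71 and Sdhd to 1.41. The median difference over all genes was then -0.02, and the share of all genes that passed is not given.

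Between the cell types, the members were closer together at the neonatal stage than later. In the later comparison cell type and isolation method cannot be told apart, as only later cardiomyocytes came from perfusion. In neonates 25 of 32 were higher in cardiomyocytes than in fibroblasts and 1 was lower, where 21.6% of all genes were higher and 19.3% lower (40.9% in all), with a median log2 difference of 1.72. Later, 30 were higher and 1 lower, where 38.6% and 39.4% of all genes were (77.9% in all), with a median of 4.50; all genes had medians of -0.02 and -0.03 at these stages. On log2(FPKM + 1), Mdh1 (2.98 ± 0.13, adjusted p = 1.35e-05), Sdha (2.42 ± 0.15, adjusted p = 2.80e-05) and Idh3g (2.39 ± 0.13, adjusted p = 1.96e-05) had the highest neonatal differences. With the marker share of 10.0% and 8.45% subtracted from the neonatal fibroblast libraries these were 4.87, 3.39 and 3.33 and were still the 3 highest on that scale. The added 1 FPKM understates differences of low genes, so the order does not hold for plain FPKM ratios. Slc25a13 had 0.676 and 0.601 FPKM in neonatal fibroblasts, against 7.57 and 5.83 FPKM in neonatal cardiomyocytes, a larger ratio than that of Mdh1. Sdha had 158 and 144 FPKM in neonatal cardiomyocytes, against 28.1 and 26.8 FPKM in neonatal fibroblasts, and 729.6 and 679 FPKM in PN30 and PN67 cardiomyocytes, against 23.0 and 16.8 FPKM in PN28 and PN60 fibroblasts. Idh3g had 144 and 123 FPKM in neonatal cardiomyocytes, against 24.7 FPKM in both neonatal fibroblast libraries, and 528 and 553.5 FPKM in later cardiomyocytes, against 17.1 and 20.8 FPKM in later fibroblasts. Later, the highest differences on the same scale were those of Idh2 (7.09 ± 0.23, adjusted p = 1.56e-07), Mdh1 (6.34 ± 0.13, adjusted p = 3.30e-08) and Slc25a13 (5.66 ± 0.16, adjusted p = 8.38e-08). This order too depends on the added 1 FPKM. Slc25a13 (0.330 and 0.256 FPKM) and Me3 (0.433 and 0.524 FPKM) lay below it in PN28 and PN60 fibroblasts. By plain ratios of mean FPKM, Slc25a13 differed more than Idh2.

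Glud1 went the other way at both stages. It was lower in cardiomyocytes than in fibroblasts by 0.35 ± 0.10 in neonates (log2 difference -0.35, adjusted p = 0.0282) and by 0.42 ± 0.10 later (-0.42, adjusted p = 0.00604). The neonatal call was lost when any of the 4 neonatal libraries was left out (adjusted p = 0.0946 to 0.148) and when the cardiomyocyte marker share was subtracted from the neonatal fibroblasts (-0.24, adjusted p = 0.0968). Glud1 has a pseudogene in the annotation (Glud-ps), so its level is uncertain by what the counting could split. Aco1 and Me2 had the other lowest values: Aco1 differed by -0.22 ± 0.17 in neonates (adjusted p = 0.340) and by 0.44 ± 0.17 later (0.0458; 0.0541 to 0.196 without PN60 fibroblasts or without any one of the 4 cardiomyocyte libraries), and Me2 by -0.07 ± 0.13 (0.721) and -0.11 ± 0.13 (0.447).

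The order of the levels also differed between the cell types. FPKM is per length and allows this comparison within a library. In later cardiomyocytes the highest means were those of Mdh1 (1915 FPKM), Idh2 (1255) and Mdh2 (1254), the last 2 of which were indistinguishable beside the spread between PN30 and PN67. In later fibroblasts Glud1 came first (134 FPKM), followed by Mdh2 (74.7) and Dlst (55.6), and Idh2 averaged 8.37 FPKM, 0.667% of its later cardiomyocyte mean. In neonatal fibroblasts Mdh2 (95.3 ± 1.69 FPKM), Glud1 (91.1 ± 1.89) and Idh2 (85.8 ± 2.53; SD, n = 2 each) led. This order did not hold under other sums. With the cardiomyocyte marker share subtracted, the 2 neonatal libraries held 85.3 and 83.7 FPKM of Glud1, 61.8 and 64.8 of Mdh2 and 40.1 and 50.5 of Idh2, and by protein-coding transcripts 82.5 and 85.3 FPKM of Idh2, 80.4 and 73.8 of Mdh2 and 68.0 and 69.9 of Glud1.

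The whole ventricle was followed over 5 stages of 1 library each, with a slope on stage order as the test. Of 33 members tested 26 rose and 7 did not pass, where 19% of all 11635 genes rose and 35.2% changed in either direction, and the median slope was 0.32 per stage on the log2 scale, against 3e-04 over all genes. The 3 highest slopes were those of Me3 (0.83 ± 0.14, adjusted p = 0.00953), Bckdha (0.69 ± 0.08, adjusted p = 0.00498) and Ogdh (0.60 ± 0.07, adjusted p = 0.00492). The counts depended on E17: without it 4 members rose, and 606 of all genes in place of 2212. Without PN1 or without PN28 15 rose, with FPKM as deposited 13, with equal sums 16, and with the slope taken on log2 days after conception 2. Over all genes the median slope was -0.0034 without PN1, 0.0043 without PN28, -0.092 as deposited and -0.078 with equal sums, and -0.0014 on log2 days. The shares of all genes called are not given for these 5 settings, so their counts show only how far the members moved. Ventricle cardiomyocyte markers (10 measured) also climbed with stage, at 14110, 18793, 23095, 34275 and 37031 FPKM, and the 5 erythroid markers summed to 5030 FPKM at E17 and to 180 to 237 FPKM afterwards. The 9 macrophage and leukocyte markers tested all rose, with sums of 36.1, 39.5, 68.7, 208 and 157 FPKM over the 11 measured, and 8 of 9 mesothelial and epicardial markers fell, with sums of 86.5, 35.5, 26.3, 6.78 and 7.40 FPKM. The part of these markers in the slopes was not tested.

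Me3 had 2.86, 5.56, 23.1, 31.9 and 29.9 FPKM from E17 to PN90, so that its main increase lay before PN28; by protein-coding transcripts alone its slope was 0.40 (adjusted p = 0.0235). Ogdh had 95.9, 159.7, 287, 418 and 481 FPKM, with a step at every stage. The branched-chain genes kept low levels through PN10 and were higher at PN28 and PN90. Bckdha had 9.72, 15.0, 18.6, 53.4 and 61.9 FPKM, Bckdhb 17.4, 14.2, 16.1, 43.8 and 42.6 FPKM, Dbt 16.5, 14.9, 12.9, 35.1 and 35.7 FPKM, and Bcat2 9.71, 6.66, 8.97, 19.7 and 19.01 FPKM. Of these 4, Bckdha and Bckdhb passed the slope test and Dbt (adjusted p = 0.0722) and Bcat2 (0.0606) did not.

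Among the isozymes, Idh2 was the one without a slope (0.05 ± 0.09, adjusted p = 0.674). Idh2 had 658, 773, 522, 620.3 and 887 FPKM from E17 to PN90, lowest at PN10. Idh1 had 25.6, 33.7, 32.8, 41.4 and 44.7 FPKM (0.19 ± 0.05, adjusted p = 0.0270; 0.0991 with a further Idh1 transcript added). Mdh1 had 548, 709.7, 748, 1255 and 1254 FPKM (0.32 ± 0.07, adjusted p = 0.0216), and Mdh2 had 153, 205, 335, 350.5 and 317 FPKM (0.29 ± 0.08, adjusted p = 0.0428). As in isolated cardiomyocytes, every ventricle library held more Mdh1 than Mdh2, by 2.23 to 3.95 times. Of the ventricle Mdh2 sum, 51.8% to 63.5% lay on Mdh2-203, annotated as a target of nonsense-mediated decay, against 15.0% to 18.4% in cardiomyocytes, and by protein-coding transcripts the ventricle ratio was 4.12 to 6.57 times. Got1 had 93.2, 103, 139.6, 349.9 and 349.8 FPKM (0.56 ± 0.09, adjusted p = 0.00911), and Got2 had 112, 158, 201.4, 286 and 288 FPKM (0.36 ± 0.06, adjusted p = 0.00848). Got2 exceeded Got1 at E17, PN1 and PN10, and Got1 exceeded Got2 at PN28 and PN90.

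The 3 lowest slopes were those of Me2, Aco1 and Suclg1, none of which passed. Me2 had 8.78, 6.23, 4.81, 3.80 and 4.96 FPKM (-0.20 ± 0.07, adjusted p = 0.0696), and was above Me1 at E17 and below it at every later stage. Aco1 had 11.1, 11.3, 12.1, 13.5 and 10.4 FPKM (0.01 ± 0.05, adjusted p = 0.937). Suclg1 had 0.738 to 1.36 FPKM by its matched transcripts (0.03 ± 0.07, adjusted p = 0.765). Slc25a12 was the remaining member that did not pass (0.20 ± 0.07, adjusted p = 0.0630). With a further Slc25a12 transcript added, as described below, it passed (0.23 ± 0.06, limma adjusted p = 0.0263).

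**Figure D5:**
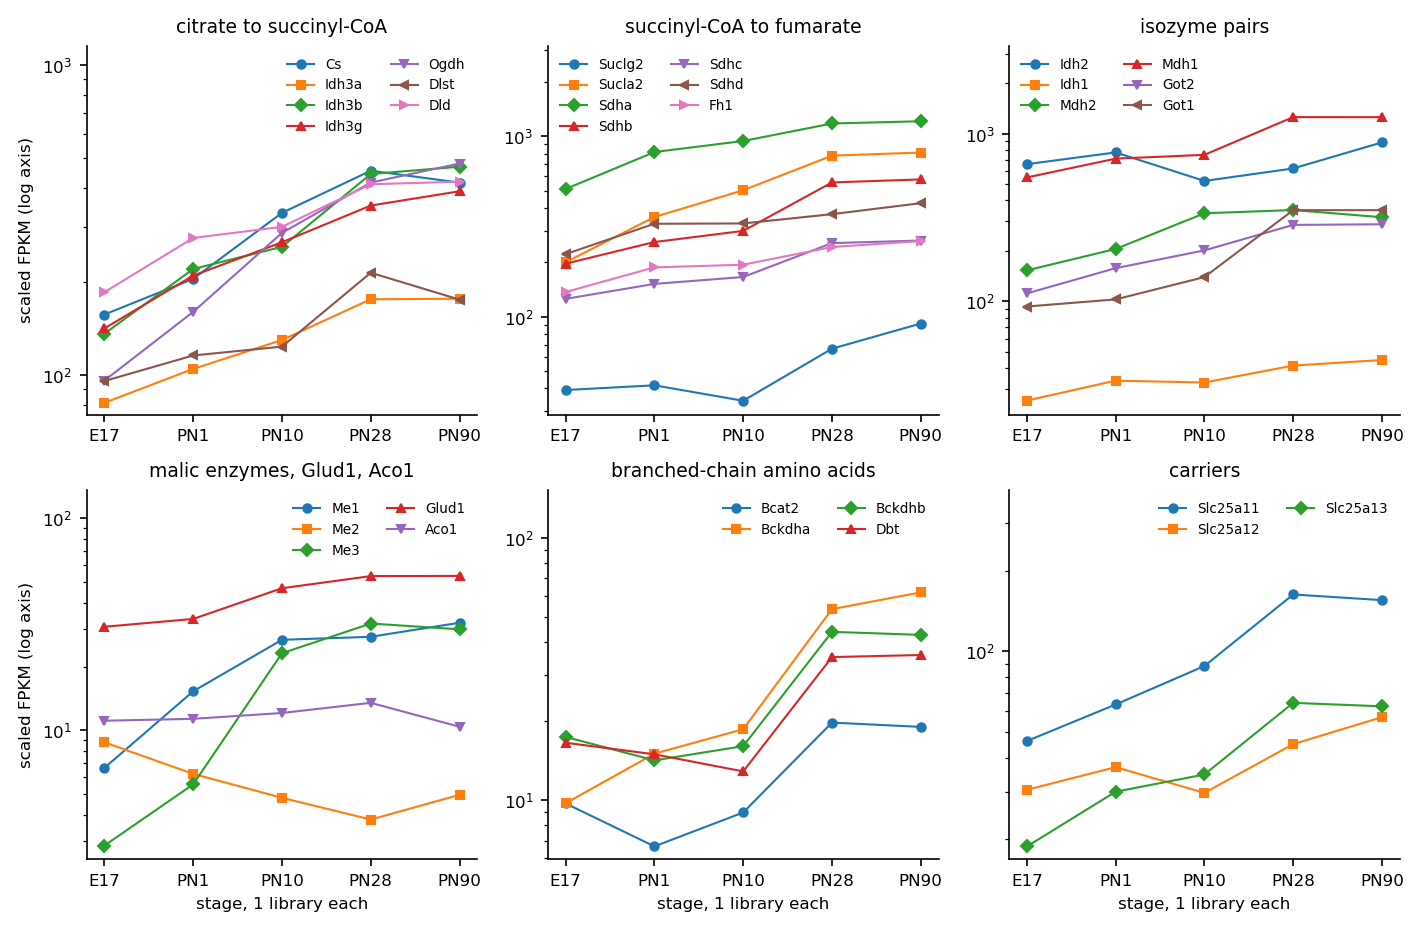
Scaled FPKM (log axis) of the tested members in ventricles over the 5 stages, with a single library a stage, in 6 panels by role (Suclg1, near 1 FPKM by its matched transcripts, is not drawn). Most lines climb; Idh2 dips at PN10, Me2 is highest at E17, and the branched-chain genes step up between PN10 and PN28.

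Some sums were partial, because 12317 of 94696 deposited transcripts had identifiers without a match in the annotation used for gene names. Of these, 8073 lay within the mm9 locus of exactly 1 gene and were added to it as an alternative chosen after seeing the data; strand was not known for them. For Suclg1, the alpha subunit of succinyl-CoA ligase that pairs with both Sucla2 and Suclg2, 1 such transcript held 98.3% to 99.9% of the FPKM in the cell libraries. With it, Suclg1 had 435 and 396 FPKM in PN30 and PN67 cardiomyocytes, against 123 and 107 FPKM in neonatal ones (1.84 ± 0.17, adjusted p = 6.58e-05), and 17.1 and 12.1 FPKM in PN28 and PN60 fibroblasts, against 23.3 and 20.8 FPKM in neonatal fibroblasts (-0.58 ± 0.17, adjusted p = 0.0297). In ventricles it then had 105, 144, 168, 254 and 234 FPKM (0.31 ± 0.06 per stage, adjusted p = 0.0137). Pcx, pyruvate carboxylase, which refills oxaloacetate from pyruvate, then had 10.7 and 13.4 FPKM in PN30 and PN67 cardiomyocytes, against 0.986 and 0.823 FPKM in neonates (2.77 ± 0.15, adjusted p = 8.31e-06), and 0.631 to 0.838 FPKM in the 4 fibroblast libraries. All 34 members could be tested in cells in this way, of which 33 rose in cardiomyocytes and 1 fell, where 36.9% of all 12354 genes in that fit rose and 30.7% fell, and in fibroblasts 16 fell and 4 rose, where 21.9% fell and 19.9% rose.

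Other members gained level but kept their calls in cardiomyocytes. Dld, of which 66.9% to 78.1% lay in such a transcript, had 329 and 299 FPKM in later cardiomyocytes, against 99.9 and 85.3 FPKM in neonatal ones (1.75 ± 0.19, adjusted p = 1.38e-04). Slc25a12, with 60.2% to 67.9% there, had 134 and 119 FPKM, against 31.9 and 26.5 FPKM, and then exceeded Slc25a13 (95.7 and 79.9 FPKM, against 8.58 and 7.81 FPKM) at both stages. Me3 had 98.5 and 95.7 FPKM, against 7.07 and 6.48 FPKM (3.66 ± 0.14, adjusted p = 3.05e-06). Of Idh1, 26.4% to 36.5% lay in such a transcript in cells and 36.0% to 54.2% in ventricles. With it, ventricles held 6.87 to 11.95 times as much Idh2 as Idh1, against 14.98 to 25.68 times without it.

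The type of transcript behind a sum also differed. Of the Me3 sum, 89.8% and 89.1% in PN30 and PN67 cardiomyocytes and 74.3% and 78.9% in neonatal ones lay on Me3-203, which is annotated as a retained intron, and protein-coding transcripts of Me3 alone had 3.24 and 3.16 FPKM, against 0.452 and 0.289 FPKM. In ventricles Sdha-205, a retained-intron transcript of 404 nucleotides, had 279.7 to 506 deposited FPKM, against 0.316 to 1.65 FPKM in the cell libraries. Sdha sums of ventricles and cells are therefore not comparable. Protein-coding transcripts alone do not settle this, since the 2 sets differ in kit and were scaled apart. By these transcripts ventricles had 256, 399, 398, 600.3 and 588 FPKM of Sdha from E17 to PN90, and the slope (0.30, limma adjusted p = 0.0227) kept its call. Ogdh-204, which has the same coding sequence of 1023 codons as the main Ogdh transcript and shares 21 of 23 exons with it, held 16.2% and 20.9% of Ogdh in PN30 and PN67 cardiomyocytes, against 5.28% and 6.03% in neonatal ones. Its share was 3.44% to 5.89% in fibroblasts and 1.29%, 3.47%, 4.22%, 5.52% and 8.43% from E17 to PN90 in ventricles. These shares are estimates by which Cufflinks divides fragments among overlapping transcripts, and were not tested.

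Related genes outside the 34 were counted by list, beside the shares of all genes given above, which in cardiomyocytes were 36.9% higher and 30.3% lower. The lists too were chosen with earlier results of these data known. All 4 subunit genes of pyruvate dehydrogenase, which makes the acetyl-CoA that enters the cycle, rose in cardiomyocytes, by 1.66 ± 0.13 for Pdhb to 2.41 ± 0.13 for Pdha1 (adjusted p = 3.32e-05 and 9.55e-06). Of 11 tested genes among other cycle and succinate dehydrogenase assembly genes, 10 rose, led by Oxct1, which activates ketone bodies with succinyl-CoA (4.28 ± 0.14, adjusted p = 2.41e-06), whereas Dhtkd1, a relative of Ogdh, did not pass (0.04 ± 0.20, adjusted p = 0.864). Of 24 tested genes of branched-chain degradation and transamination beyond the 4 members, 22 rose, with the highest change in Aldh6a1, methylmalonate-semialdehyde dehydrogenase of the valine route (3.39 ± 0.20, adjusted p = 1.24e-05), and the lowest in Bcat1, the cytosolic aminotransferase (-0.998 ± 0.45, adjusted p = 0.0817). Genes of malate, citrate and glutamate exchange were mixed, with 6 of 13 higher, near the share of all genes, and 2 lower, from Gpt, alanine aminotransferase (3.38 ± 0.13, adjusted p = 4.18e-06), to Slc3a2, the heavy chain of amino acid transporters (-2.06 ± 0.16, adjusted p = 3.02e-05). In fibroblasts the pyruvate dehydrogenase genes had log2 changes of -0.22 to 0.13, 7 of the 24 branched-chain genes fell and 3 rose, where 21.4% and 19.7% of all genes did, and Slc3a2 rose (1.08 ± 0.16, adjusted p = 0.00167).

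Promoter windows of 250 bases before to 50 after the start (RefSeq, GRCm38) were found for 30 of the 34 members and searched on both strands. The estrogen-related receptor element TCAAGGTCA was in 1 of the 30 (Sdhd), against 0.470% of 27025 genes. Its core AAGGTCA was in 3 (Got1, Ogdh and Sdhd; 10.0%), against 5.38% of all genes, and includes the longer element. The NRF1 site (GCGC, any base, then TGCGC) was in 4 (Dld, Sdha, Sdhd and Sucla2; 13.3%), against 5.19% of all genes. Most member promoters held none of these letters in the window, and matches in so few genes are given as a description only.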

How the data were processed

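Total RNA was the starting material of 13 libraries; ventricle libraries were rRNA-depleted and cell libraries used another kit, per the labels' protocols, so the 2 sets were fitted apart. The authors used TopHat2 2.0.5 and Cufflinks 2.1.1 on mm9, per the submitters' processing notes. The deposited values are FPKM per transcript, with coverage (a per-base signal) beside them, per the file headers; which annotation they quantified is not stated there. Transcript identifiers were matched to GENCODE M21 (82379 of 94696, 87.0%). Gene FPKM is the sum over matched transcripts of at least 200 nucleotides that Cufflinks did not mark as having too little data. Genes with a failed transcript were left out (90 in cells, 64 in ventricles). Libraries were scaled by the median of ratios, and genes with a mean of at least 1 FPKM were tested on log2(FPKM + 1), which understates changes of low genes. The test was limma 3.58.1 (R 4.3.3) (empirical Bayes, trended prior), adjusted by Benjamini-Hochberg over all genes, called below 0.05, and it was tested on simulated data. PN30 with PN67, and PN28 with PN60, each form 1 later class, since no single age has a replicate. Pair ratios used an exact permutation test (Python 3.11.15). The 95% interval of FPKM that Cufflinks gives had a median half-width of 7.17% to 8.40% per library, and total fragment counts are not given. Values in every library are given for the 6 isozymes and for the 3 highest and 3 lowest members of each comparison, and of each pathway list the highest and lowest gene is named; others were named after their values were seen. Members and lists were chosen with earlier results of these data known. Other scalings, pseudocounts, filters, transcript sets and left-out libraries were tried.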

Additional observations from a re-analysis of the deposited data

Results flagged for a closer look

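The stage change in cardiomyocytes differed from that in fibroblasts, by the test of the difference itself (limma adjusted p below 0.05), for 30 of 32 members. Of all 12095 genes 58.9% did, 32.3% with a positive and 26.6% with a negative difference. As log2 differences, the cardiomyocyte change minus the fibroblast change, the isozymes had 4.75 (Idh2), 1.65 (Idh1), 3.36 (Mdh1), 2.203 (Mdh2), 3.14 (Got2) and 2.78 (Got1). The carriers had 3.46 (Slc25a11), 3.43 (Slc25a13) and 1.70 (Slc25a12), and the malic enzymes 3.32 (Me3) and 1.74 (Me1). The branched-chain genes had 3.43 (Bckdhb), 3.29 (Bckdha), 3.18 (Bcat2) and 1.42 (Dbt).

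Among cycle genes the differences were 3.26 (Ogdh), 3.11 (Cs), 2.94 (Suclg2), 2.52 (Sucla2), 2.47 (Fh1), 1.72 (Dld) and 1.49 (Dlst). The Idh3 subunits had 2.60 (Idh3b), 2.38 (Idh3g) and 2.38 (Idh3a), and the succinate dehydrogenase subunits 2.87 (Sdhb), 2.68 (Sdha), 2.50 (Sdhc) and 2.14 (Sdhd). Aco1 had 0.66. Each of these differences uses the neonatal fibroblast libraries, which held a cardiomyocyte marker share of 10.0% and 8.45%. With it subtracted, all of them were smaller. Of these, 6 moved by over 1.5 times, to 1.47 (Mdh1), 1.43 (Idh3g), 1.48 (Idh3a), 1.58 (Fh1), 1.71 (Sdha) and 1.41 (Sdhd), and Aco1 had 0.56 and no longer passed (adjusted p = 0.0882).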

How the results depend on the processing

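No paired analysis was possible because the labels carry no replicate numbers. Except where a share of all genes is given above, the counts below stand without it and show only how far the members moved. With single libraries left out, the counts of members ranged as follows. In cardiomyocytes 31 rose in every fit and 0 to 1 fell; in fibroblasts 7 to 13 fell and 1 to 5 rose; 28 to 30 stage changes were higher in cardiomyocytes; between cell types 24 to 27 were higher in neonates and 0 to 1 lower, and 29 to 30 higher later; in ventricles 4 to 27 rose and 0 to 1 fell. The fall of Me2 was lost (0 lower) with a pseudocount of 0.1, with no filter, and with a minimum of 5 FPKM, which leaves Me2 out. In fibroblasts 22 fell and 1 rose with FPKM as deposited, 23 fell and 1 rose with equal sums, 8 fell with that cell type fitted alone, and 2 fell and 11 rose with the marker share subtracted, which also left 0 members lower in cardiomyocytes as neonates (Glud1 lost its call). In ventricles 13 rose and 1 fell as deposited, 16 and 1 with equal sums, and 2 rose on log2 days. Fibroblast changes that took the other sign with the share subtracted were Idh3a 0.64, Mdh1 0.58, Idh3g 0.58, Sucla2 0.57, Sdha 0.51, Slc25a13 0.34, Ogdh 0.28, Fh1 0.24, Mdh2 0.23, Idh3b 0.20, Sdhb 0.17, Sdhd 0.14, Sdhc 0.11, Idh1 0.074, Bckdha 0.050 and Got2 0.045; in the neonatal difference between cell types they were Idh1 0.12 and Me2 0.046. As deposited, signs turned for Got1 (-0.28) and Me3 (-0.0537) in fibroblasts, Idh1 (0.013) between neonatal cell types, and the ventricle slopes of Aco1 (-0.095), Idh2 (-0.056) and Suclg1 (-0.027). With equal sums they turned for Got1 (-0.28), Me3 (-0.056), neonatal Me1 (-0.087) and the slopes of Aco1 (-0.0799), Idh2 (-0.039) and Suclg1 (-0.017). With locus-assigned transcripts neonatal Idh1 was 0.031 and the Aco1 slope -2e-04, and on log2 days the Aco1 slope was -0.017. Leaving out libraries turned signs of values near 0: in fibroblasts Got1 (-0.19 to 0.25) and Idh1 (-0.16 to 0.080), in the difference of changes Glud1 (-0.12 to 0.013) and Me2 (-0.13 to 0.034), between neonatal cell types Idh1 (-0.15 to 0.12), Me1 (-0.15 to 0.24) and Me2 (-0.15 to 0.020), and in ventricles Aco1 (-0.027 to 0.091), Idh2 (-0.0774 to 0.085) and Suclg1 (-0.047 to 0.064). The Idh2 to Idh1 ratio between cell types ranged over 3.29 to 4.46, and the stage difference of Mdh2 to Mdh1 over -0.073 to 0.77; it was -0.28 with the share subtracted. Apart from the settings whose construction changes the samples or genes, the cause was not tested. The alternatives with another filter, transcript set or prior kept the counts within 1.5 times, except as stated.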
